A study of Mus musculus with 12 samples.

Results

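Aifm2 encodes FSP1, a reductase that uses NAD(P)H to return coenzyme Q and vitamin K to their reduced forms at lipid membranes. Reduced coenzyme Q stops the chain reaction of lipid peroxidation, and FSP1 is known as a suppressor of ferroptosis, the iron-dependent cell death to which kidney tubules are prone. Coenzyme Q itself is built in mitochondria: PDSS1 and PDSS2 make the isoprenoid tail, COQ2 joins it to the ring, and COQ3, COQ5, COQ6 and COQ7 modify the ring with the help of COQ8A and COQ9. The 10 genes described here are Aifm2 and 9 of these synthesis genes (Pdss1, Pdss2, Coq2, Coq3, Coq5, Coq6, Coq7, Coq8a and Coq9). They were taken by name, after the Entrez Gene IDs of the deposited tables had been matched to symbols, and are 10 of 24532 gene identifiers. The choice was made with earlier results of these data known.

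The study profiled total RNA from whole mouse kidney in 4 groups of 3 libraries, all from mice fasted overnight. The wild-type groups (strain C57BL/6) received vehicle or GW4064, a synthetic agonist of the bile acid receptor FXR, for 6 h. The knockout groups (labelled Nr1h4tm1Gonz/J, an allele of Nr1h4, the gene of FXR) received the same vehicle or GW4064. The time on vehicle, dose, age and sex are not given in the labels, nor is whether the knockout and wild-type mice were littermates. The labels do not say that the 3 libraries of a group came from 3 animals, so the p-values measure the spread between these libraries, which may be partly technical. In bulk kidney RNA, fewer cells of a type and less RNA per cell cannot be told apart.

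Levels are TPM, transcript abundances that are divided by transcript length and sum to 1000000 in each library. The libraries held 2.86 to 4.27 mapped gigabases and 16693 to 17186 genes above 0. Nr1h4 lay between 189 and 267 TPM in the 6 wild-type libraries and between 105 and 134 in the 6 knockout libraries, without overlap. These gene totals do not separate exons, so they do not show whether an intact message was lost. Slc51a, an FXR target that encodes a bile acid transporter subunit, lay at 36.4 to 48.1 TPM on vehicle and 427 to 514 on GW4064 in wild type, and at 28.6 to 46.5 over the 6 knockout libraries. The 18 markers of kidney cell types summed to 11300 to 11900 TPM in the other 3 groups and to 10000 to 10900 in knockout GW4064. Muscle markers summed to at most 0.261 TPM. Of the 2 adrenal genes, Cyp11b1 was listed at 0 throughout and Star lay at 1.11 to 2.12 TPM. The 2 liver genes summed to 10.5 to 15.0 TPM on vehicle and 8.3 to 9.0 on GW4064 in wild type, without overlap. In the knockout the liver sums were 14.1 to 17.0 and 13.3 to 14.9 TPM. The 4 fat cell markers summed to 20.3 to 30.5 TPM on vehicle and 1.5 to 37.0 on GW4064 in wild type, and to 4.11 to 32.1 and 9.25 to 30.1 in the knockout. The 2 haemoglobin genes summed to 23.5 to 1630 TPM over all libraries.

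Aifm2 (Entrez 71361) lies on chromosome 10 at 61715263 to 61739260, plus strand, in mm10, 27.7 Mb from Nr1h4. Pdss2 is on the same chromosome, 46.0 Mb from Nr1h4. RefSeq (GRCm38.p6) gave a start site window for 9 of the 10 genes, all but Coq5. The 250 bases before the start of Aifm2 and of Pdss2 are shown because these were the only members called in the wild-type response described below, and capitals mark the letters AGGTCA, the half-site that FXR and many other nuclear receptors can bind.
Aifm2, chr10:61720399-61720648, plus strand: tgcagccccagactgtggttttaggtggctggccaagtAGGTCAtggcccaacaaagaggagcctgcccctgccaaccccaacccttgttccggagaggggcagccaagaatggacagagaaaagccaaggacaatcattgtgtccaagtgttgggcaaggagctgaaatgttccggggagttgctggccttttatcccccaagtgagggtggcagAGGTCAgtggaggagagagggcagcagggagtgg
Pdss2, chr10:43221236-43221485, plus strand: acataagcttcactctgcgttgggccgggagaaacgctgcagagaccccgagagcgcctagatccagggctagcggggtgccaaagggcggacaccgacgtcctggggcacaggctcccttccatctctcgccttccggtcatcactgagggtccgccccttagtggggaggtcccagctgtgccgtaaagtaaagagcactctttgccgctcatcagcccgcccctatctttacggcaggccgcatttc

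The Aifm2 window held AGGTCA 2 times, beginning 212 and 34 bases before the start, and the Pdss2 window held none on either strand. Across 32851 such windows, 14.0% held AGGTCA on either strand and 1.36% held it 2 or more times. Among the 11 windows of the members it also occurred in those of Pdss1, Coq7 and Coq8a. The inverted repeat of this half-site with 1 base between (IR-1), which contains the half-site and is the element FXR is best known to bind, was in 0.00609% of all windows and in 0 of the 11. The core TGACNNNGC of the antioxidant response element was in 10.2% of windows and, among members, in that of Coq9. These matches describe the letters of these windows only. The Aifm2 window belongs to a transcript start 5386 bases downstream of the first of the gene's 7 GENCODE transcripts, 4 of them protein coding, and holds no exon base of any.

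Aifm2 rose in wild-type kidney on GW4064 and not detectably in the knockout. Wild-type kidneys held 25.54, 23.55 and 22.71 TPM of Aifm2 on vehicle and 39.08, 40.93 and 35.55 on GW4064. All 3 treated libraries lay above all 3 controls. In the knockout it was 23.61, 28.31 and 23.92 TPM on vehicle and 22.75, 23.68 and 24.63 on GW4064, and these groups overlapped. In rising order, the means were 23.69 ± 0.943 TPM (SD, n = 3) for the knockout on GW4064, 23.93 ± 1.46 for wild type on vehicle, 25.28 ± 2.63 for the knockout on vehicle and 38.52 ± 2.74 for wild type on GW4064. The 3 lower means lay within their spread of each other, and wild-type GW4064 stood above them.

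On the scale of log2(TPM + 0.5), the Aifm2 difference of GW4064 from vehicle was 0.67 (SE 0.080, 1.6-fold, limma adjusted p = 5.76e-04) in wild type. The same difference in the knockout was −0.09 (SE 0.080, adjusted p = 0.748). The difference between these responses, knockout minus wild type, was −0.76 (SE 0.113, adjusted p = 0.00484), so the Aifm2 response was tested and differed between genotypes. On vehicle, knockout and wild type differed in Aifm2 by 0.07 (SE 0.080, adjusted p = 0.558). On GW4064 the knockout was lower by a log2 difference of −0.69 (SE 0.080, adjusted p = 1.28e-04), with no overlap between the 2 groups. The fat cell markers were low in wild-type GW4064 replicates 1 and 3, and with their score as a covariate the wild-type difference of Aifm2 was 0.66 (adjusted p = 0.00387). Of the 18 kidney markers, 1 was called in the wild-type response, against 4.8% of all genes. It was the principal cell gene Aqp2 (−0.52, adjusted p = 0.0147), and its part in the Aifm2 difference was not tested.

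The deposited values of Aifm2 carry a limit of their own. Its read coverage, 7.5 to 15.0 per base, was 24.6 to 28.1% of what its deposited FPKM would give, against 100% for 6 of the other 9 members. The corresponding shares were 45.0 to 45.1% for Coq7, 86.3 to 87.3% for Pdss2 and 98 to 98.8% for Coq8a. With coverage in place of TPM, the Aifm2 difference was 0.63 (adjusted p = 0.00192) in wild type and −0.05 (adjusted p = 0.888) in the knockout. The end of Aifm2 overlaps Macroh2a2 on the opposite strand by 614 bases, and whether strand was used in counting is not given in the sources used here. Macroh2a2 was at 5.93 to 10.1 TPM and its wild-type difference was −0.06 (SE 0.136, adjusted p = 0.865).

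**Figure D1:**
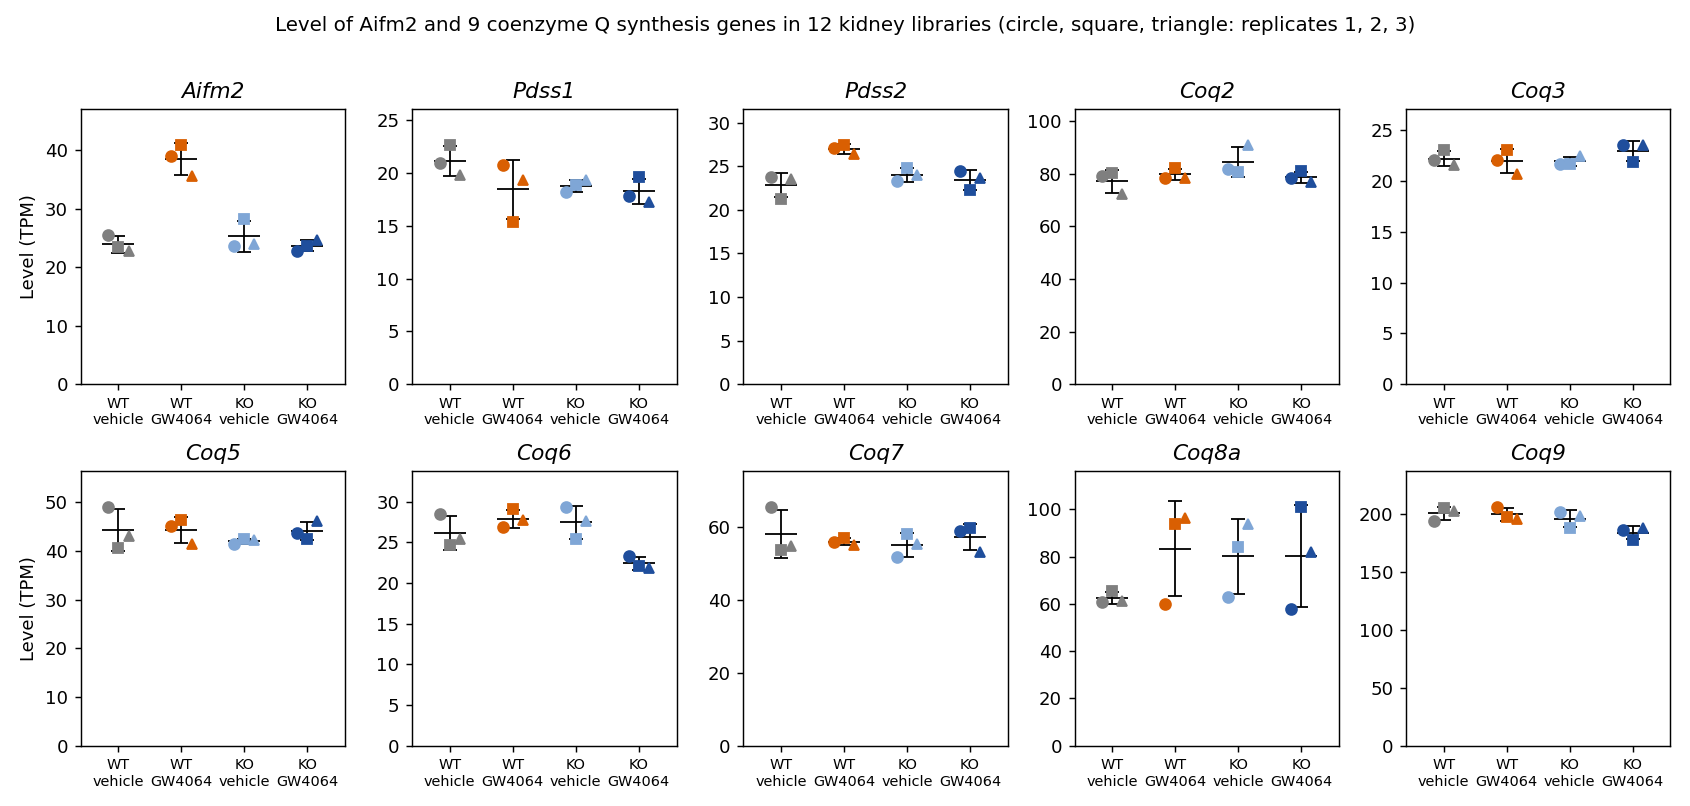
Level (TPM, vertical axes from 0) of each of the 10 genes in each library, by group, with the mean (wide bar) and SD (capped line, n = 3). The 3 wild-type GW4064 libraries of Aifm2 sit between 35.55 and 40.93 TPM, above the other 9, and the 3 knockout GW4064 libraries of Coq6 sit between 21.79 and 23.35, below the other 9.

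Across all 10 members, 2 were called in the wild-type response (20% of members, adjusted p under 0.05), both higher, against 4.8% of the 14488 genes tested. Because the members were chosen with earlier results of these data known, their shares here and below are a description and not a test of excess. The median log2 difference of the members was 0.0255 and that of all genes was −0.0336. Besides Aifm2 the called member was Pdss2. In the knockout response limma called 0 of the 10 (1 at an unadjusted p under 0.05), with 0.0138% of all genes called. The interaction of genotype and GW4064 called Aifm2 alone among the members, 10% of them against 3.19% of all genes.

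The first members of the pathway form the tail of coenzyme Q. PDSS1 and PDSS2 are the 2 subunits of the polyprenyl diphosphate synthase, which works as an assembly of both. Pdss2 was 23.75, 21.26 and 23.54 TPM in wild-type vehicle and 27.13, 27.45 and 26.38 in wild-type GW4064. The groups did not overlap, and the treated libraries were the highest 3 of all 12. In the knockout Pdss2 was 23.27, 24.82 and 23.96 TPM on vehicle and 24.43, 22.24 and 23.71 on GW4064, with overlap.

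Pdss2 was higher on GW4064 in wild type by 0.24 (SE 0.059, 1.18-fold, adjusted p = 0.042). This call sat close to the threshold and was lost in 13 of 26 alternatives, with the log2 difference between 0.19 and 0.27 and the adjusted p up to 0.137. Among these were the fits without any single 1 of the 6 wild-type libraries, without knockout vehicle replicate 1 or 3 and without knockout GW4064 replicate 3. The knockout response of Pdss2 lay within 1 SE of 0, and the difference between the genotypes' responses was −0.27 (SE 0.083, adjusted p = 0.108), which did not pass. Under GW4064, Pdss2 was lower in the knockout than in wild type by −0.20 (SE 0.059, adjusted p = 0.0358). That call was lost in 10 of 26 alternatives (adjusted p up to 0.119), among them the fits without any single wild-type GW4064 library and without knockout GW4064 replicate 2 or 3.

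Pdss1, the other subunit, did not follow. It was 20.95, 22.67 and 19.81 TPM in wild-type vehicle and 20.75, 15.35 and 19.31 in wild-type GW4064, where replicate 2 was the lowest of the 12 libraries. Its wild-type difference was −0.20 (SE 0.0996, adjusted p = 0.304), and −0.08 without that replicate. The knockout libraries held 18.21, 18.9 and 19.33 TPM on vehicle and 17.88, 19.62 and 17.31 on GW4064. All 3 knockout vehicle libraries lay below the 3 wild-type vehicle libraries, by −0.16 (SE 0.0996, adjusted p = 0.292). Pdss1 overlaps Abi1 by 186 bases on the opposite strand.

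The ratio of Pdss2 to Pdss1 in TPM was 1.13, 0.938 and 1.19 in wild-type vehicle and 1.31, 1.79 and 1.37 in wild-type GW4064, without overlap. It was 1.28, 1.31 and 1.24 in knockout vehicle and 1.37, 1.13 and 1.37 in knockout GW4064. The ratio was thus not higher in wild-type GW4064 than in every knockout library, and its value of 1.79 came from the replicate with the low Pdss1.

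Coq6 encodes a flavin-dependent hydroxylase of the ring. It was 28.49, 24.62 and 25.35 TPM in wild-type controls, 26.85, 29.07 and 27.74 after GW4064, and 29.37, 25.38 and 27.6 in knockout controls. In the GW4064 libraries of the knockout it was 23.35, 22.09 and 21.79 TPM, the lowest 3 of the 12 libraries. Under GW4064 the knockout was lower than wild type by −0.31 (SE 0.0704, 0.807-fold, adjusted p = 0.0104), and this was called in all 26 alternatives.

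The response of Coq6 to GW4064 within the knockout was −0.28 (SE 0.0704, adjusted p = 0.217), and in wild type it was 0.09 (SE 0.0704, adjusted p = 0.514). The difference between these responses was −0.38 (SE 0.0996, adjusted p = 0.0664), short of the threshold. It passed under median-of-ratios scaling (−0.43, adjusted p = 0.0307) and quantile scaling (−0.42, adjusted p = 0.0430), and without wild-type vehicle replicate 1 (−0.44, adjusted p = 0.0459) or knockout vehicle replicate 2 (−0.43, adjusted p = 0.0391). Of the 18 kidney markers, 4 were called in the knockout under GW4064, all lower, against 18.5% of all genes called. Among the 4 were the proximal tubule genes Lrp2 (−0.19) and Slc34a1 (−0.22) and the podocyte gene Nphs1 (−0.32). Slc5a2 and Slc22a6, also proximal tubule markers, had means of 612 and 389 TPM in wild-type GW4064. In knockout GW4064 their means were 579 and 409 TPM. The calls of Lrp2, Slc34a1 and Nphs1 were lost in 4, 19 and 6 of 26 alternatives. The part of these markers in the lower Coq6 was not tested.

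Of the 10 members, 3 were called in the comparison of knockout with wild type under GW4064, namely Aifm2, Pdss2 and Coq6. All 3 were lower in the knockout, 30% of the members against 18.5% of all genes. The member median was −0.0383 and the median of all genes −0.0301. On vehicle, limma called 0 of the 10 (1 at an unadjusted p under 0.05, Coq2) against 12.9% of all genes. The log2 differences on vehicle ran from −0.16 to 0.34, and the adjusted p from 0.145 to 0.865.

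**Figure D2:**
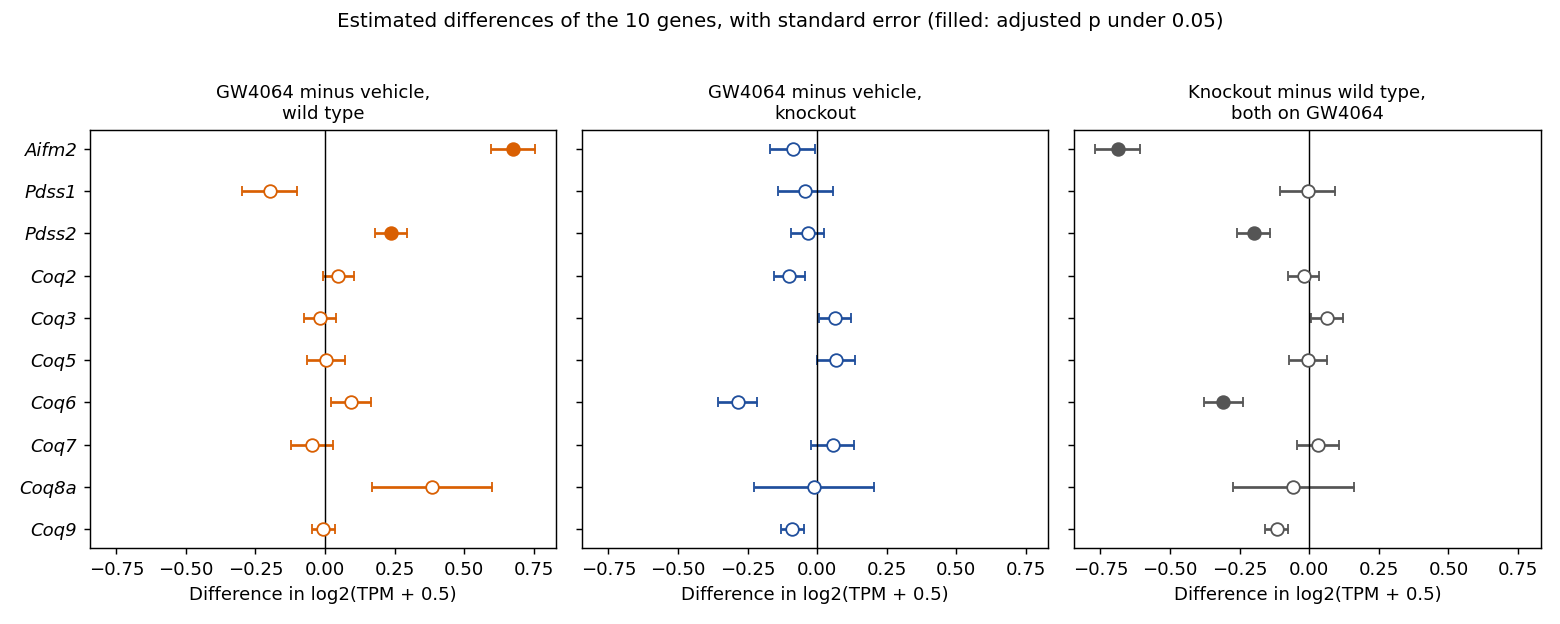
Estimated differences in log2(TPM + 0.5) of the 10 genes (points, with SE bars) for the response to GW4064 in each genotype and for knockout minus wild type under GW4064, filled where the adjusted p was under 0.05. Aifm2 lies at 0.67, −0.09 and −0.69 in the 3 panels, and Coq8a has the widest bars.

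Coq2 encodes the membrane transferase that joins ring and tail, and had the second highest mean TPM of the members. It was at 79.32, 80.19 and 72.24 TPM in the controls of wild type and at 78.52, 82.18 and 78.6 in those given GW4064. The knockout held 81.83, 80.6 and 90.98 TPM on vehicle and 78.24, 81.04 and 76.72 with GW4064. The knockout vehicle libraries lay above the wild-type ones by 0.13 (SE 0.0554, adjusted p = 0.145), which did not pass. Under median-of-ratios scaling this difference was 0.21 and passed (adjusted p = 0.0359).

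Coq9 encodes a lipid-binding protein that works with COQ7, and at a mean of 195 TPM was the most abundant member, above 94.4% of the genes tested. It was at 194.1, 205.2 and 202.1 TPM in the controls of wild type and at 206.2, 197.3 and 195.2 in those given GW4064. The knockout held 201.6, 187.8 and 198.2 TPM on vehicle and 186.3, 177.5 and 188.1 with GW4064. Under GW4064 the knockout libraries were all lower than the wild-type ones, by −0.12 (SE 0.0412, adjusted p = 0.0703). The difference did not pass the threshold in any of the 26 alternatives.

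Coq3 and Coq5, the methyltransferases, and Coq7, a hydroxylase, stayed in narrow ranges. Coq3 lay between 20.73 and 23.57 TPM over the 12 libraries, Coq5 between 40.63 and 49.1, and Coq7 between 51.84 and 65.7. The highest Coq5 and Coq7 libraries were both wild-type vehicle replicate 1. None of the 3 genes was called in any comparison, and their wild-type responses all lay within 1 SE of 0. The members that came within 1 SE of 0 in the wild-type response numbered 5, with differences from −0.05 to 0.05.

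Coq8a encodes an atypical kinase-like protein needed for the complex that builds coenzyme Q. It was at 60.68, 65.29 and 61.08 TPM in the controls of wild type and at 60.13, 93.59 and 96.32 in those given GW4064. The knockout held 62.81, 83.97 and 93.62 TPM on vehicle and 58.02, 101.1 and 82.1 with GW4064. The 12 libraries fell into 6 between 58.02 and 65.29 TPM and 6 between 82.1 and 101.1. The low ones were all of wild-type vehicle and the library numbered 1 in each of the other groups. Its spread within groups was 0.314 on the log2 scale, the widest of the members, and 11.8% of the genes tested had a wider one.

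The wild-type response of Coq8a was 0.39 (SE 0.216, adjusted p = 0.363) and did not pass. It was 0.60 without wild-type GW4064 replicate 1 (adjusted p = 0.191). With the replicate number as a block it was 0.39 with a smaller SE of 0.128 (adjusted p = 0.132), and did not pass. On vehicle the knockout differed from wild type by 0.34 (SE 0.216, adjusted p = 0.310). The genes whose levels followed Coq8a most closely over the 12 libraries, chosen after its values were seen, were Eefsec (r = 0.801) and Snx2 (r = 0.794), and the most opposite was Ino80b (r = −0.894). Coq8a overlaps Cdc42bpa on the opposite strand by 366 bases.

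**Figure D3:**
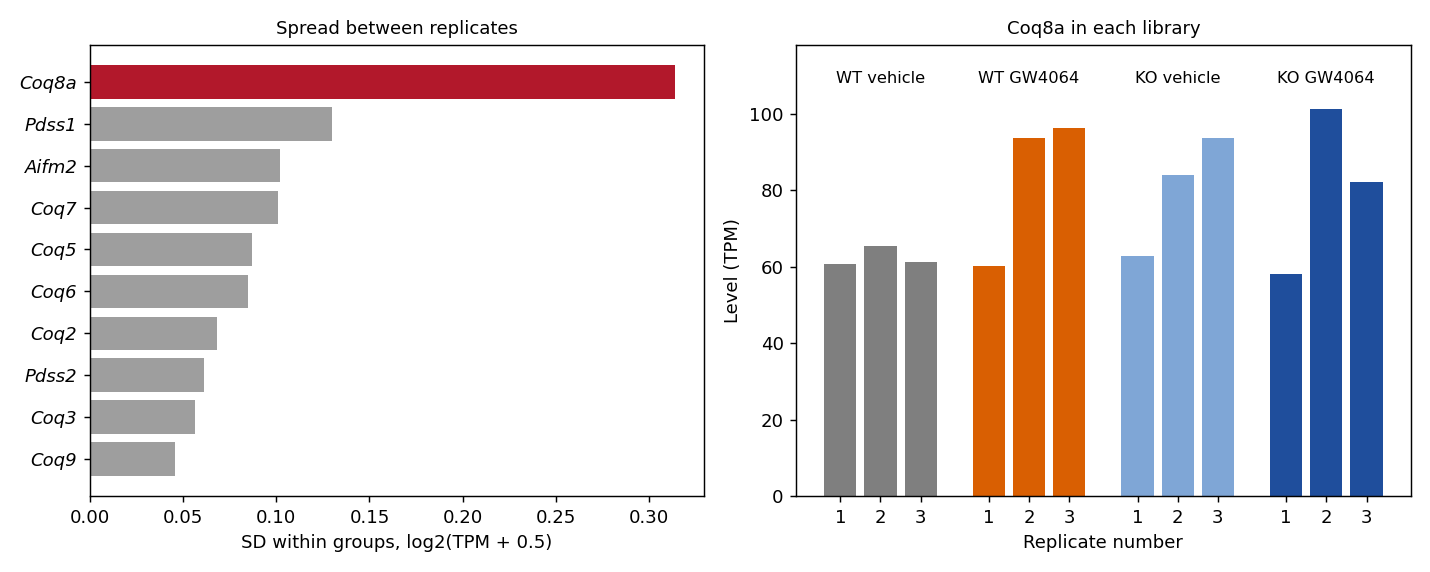
Left, SD of each gene within groups on the scale of log2(TPM + 0.5). Right, Coq8a level (TPM) in each library by group and replicate number, where the 3 wild-type vehicle libraries and replicate 1 of each other group lie between 58.02 and 65.29 and the other 6 between 82.1 and 101.1.

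On the TPM scale, which is per length, the members spanned a mean of 19.2 TPM for Pdss1 to 195 for Coq9. In between, in rising order, stood Coq3 at 22.3, Pdss2 at 24.3, Coq6 at 26.0, Aifm2 at 27.9, Coq5 at 43.7, Coq7 at 56.7, Coq8a at 76.6 and Coq2 at 80.0. Over the 12 libraries the ranges of neighbours in this order overlapped, with 2 exceptions: Coq5 stayed at or below 49.1 TPM and Coq7 at or above 51.84, and Coq2 stayed at or below 90.98 and Coq9 at or above 177.5. This order holds for TPM and not for the deposited coverage per base, where Coq7 (30.9 to 43.6) lay below Coq5 (51.6 to 72.7) and Aifm2 (7.5 to 15.0) was the lowest member. The 9 synthesis genes together summed to 523.7 to 544.1 TPM on vehicle and 542.7 to 571.4 on GW4064 in wild type. In the knockout the sums were 532.1 to 573.7 and 514.2 to 547.8 TPM. These sums overlapped between vehicle and GW4064 in both genotypes.

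The members did not vary as a block. Over the 12 libraries, which share 4 group means and one RNA preparation method, the 45 pairwise correlations of log2 levels had a median of 0.0047 and ran from −0.491 to 0.875. The highest belonged to Aifm2 and Pdss2, the 2 called in the wild-type response. With group means removed, the correlations ran from −0.734 to 0.687, and that of Aifm2 and Pdss2 was 0.395, below that of Aifm2 and Coq5 (0.633).

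Among 10980 other genes, the levels most like those of Aifm2 over the 12 libraries (Pearson's r of log2 levels) included those of Lnx2 (r = 0.973), Slc51b, the partner subunit of Slc51a (0.972), Hoga1 (0.969) and Kbtbd11 (0.964). These 12 points share 4 group means and are a description, with no test. Lnx2 rose from 15.9 ± 0.584 TPM (SD, n = 3) to 30.1 ± 4.59 in wild type (log2 0.89, adjusted p = 7.3e-04), and its knockout difference was −0.04 (adjusted p = 0.937). The rise in wild type was smaller for Aifm2 (0.67) than for Slc51b (2.80) and Kbtbd11 (1.09), and larger than for Hoga1 (0.47), with no test of these contrasts between genes. The most opposite genes were Htra1 (−0.936), Crim1 (−0.935) and Msi2 (−0.925). Slc51a had rank 7 in likeness to Aifm2 (0.960) and Sqor rank 10 (0.951).

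Within 500 kb of Aifm2 lie 18 other genes, of which 12 were tested. Of these, 1 was called in the wild-type response, against 4.8% of all genes. That gene was Tysnd1, a peroxisomal protease whose end lies 12.5 kb upstream of Aifm2. Tysnd1 was at 45.9, 32.7 and 40.3 TPM in the controls of wild type and at 72.6, 78.1 and 76.7 in those given GW4064. The knockout held 40.2, 40.7 and 38.9 TPM on vehicle and 34.2, 37.1 and 33.8 with GW4064. The wild-type GW4064 libraries stood above all others, as those of Aifm2 did (r = 0.944 over the 12 libraries). The wild-type difference was 0.94 (adjusted p = 2.07e-04) and the interaction −1.13 (adjusted p = 0.00145). The other 11 neighbours tested were called neither in the wild-type response nor in the interaction. Macroh2a2, which overlaps Aifm2, was among these.

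**Figure D4:**
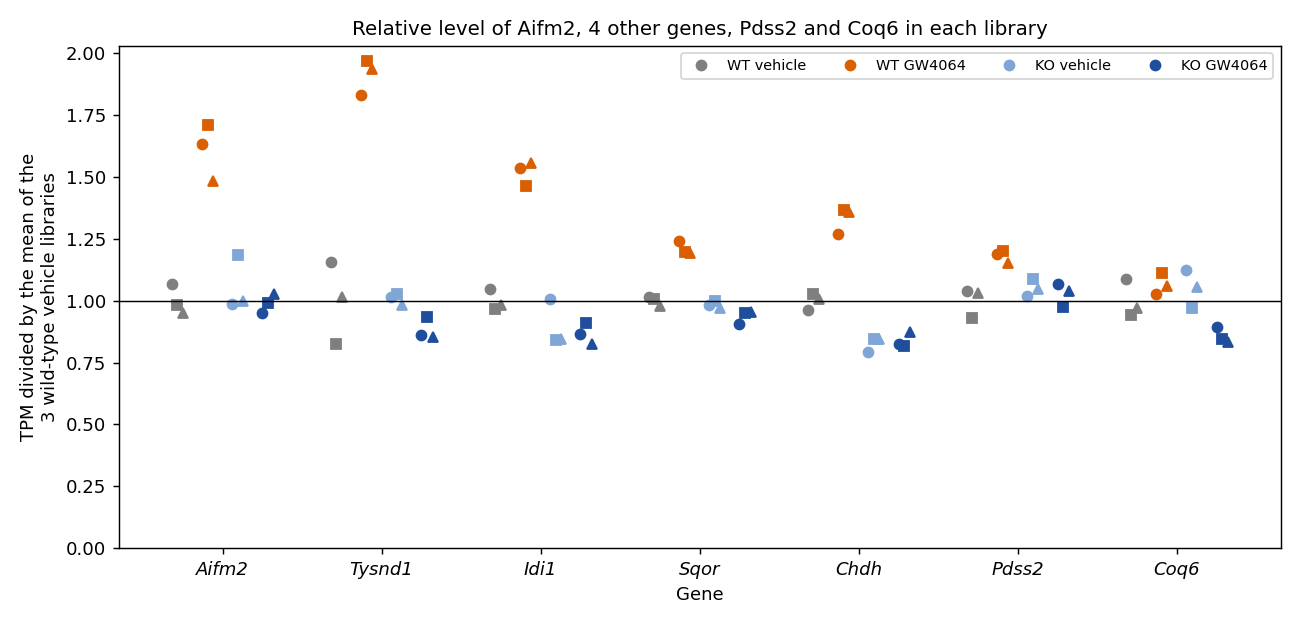
TPM of 7 genes in each library, divided by the gene's mean over the 3 wild-type vehicle libraries (vertical axis from 0; circles, squares and triangles are replicates 1, 2 and 3). The wild-type GW4064 libraries lie above all other libraries for Aifm2, Tysnd1, Idi1, Sqor, Chdh and Pdss2, and the knockout GW4064 libraries lie below all others for Coq6. All genes drawn but Coq6 were called higher in the wild-type response, so their shared rise is not a separate result. Gclm, Gsr and Vkorc1 were also called there and are not drawn.

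The remaining genes around coenzyme Q were taken as lists, chosen with earlier results of these data known. The counts below stand beside 4.8% of all genes called in the wild-type response and 3.19% in the interaction. Between genotypes, 12.9% of all genes were called on vehicle and 18.5% under GW4064. Of the 7 other synthesis and handling genes, 0 were called in the wild-type response. Coq4 (9.96 to 14.2 TPM) and Coq8b (19.8 to 25.7 TPM) were called in no comparison. Coq10b, which encodes a coenzyme Q chaperone, was lower in the knockout on vehicle (−0.39, adjusted p = 0.00915) and under GW4064 (−0.93, adjusted p = 1.15e-05). Its interaction was −0.53.

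Among the 10 genes of the mevalonate route, which supplies the isoprenoid tail, 1 rose in wild type on GW4064. That was Idi1, the isopentenyl diphosphate isomerase, from 31.6 ± 1.33 to 48.0 ± 1.54 TPM (SD, n = 3; log2 0.59, adjusted p = 5.98e-04), and 9 did not pass. The farnesyl diphosphate synthase Fdps was called in no comparison. In the knockout on vehicle 3 of the 10 were lower, Hmgcs1 (−0.37), Mvk (−0.37) and Mvd (−0.33). Under GW4064 5 were lower in the knockout, with Hmgcs1 at −0.65, Mvd at −0.84, Idi1 at −0.80, Mvk at −0.37 and Acat2 at −0.35. The call of Mvk under GW4064 was lost without wild-type GW4064 replicate 1 or 3 or knockout GW4064 replicate 2 or 3. The interaction called 4, Idi1, Hmgcs1, Mvd and Acat2, all negative.

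Of 11 enzymes or subunits that pass electrons to coenzyme Q in mitochondria, 2 rose in wild type on GW4064. Sqor, which oxidises sulfide, had a difference of 0.28 (adjusted p = 8.39e-04), and Chdh, which oxidises choline, one of 0.41 (adjusted p = 4.07e-04). Both were lower in the knockout under GW4064, by −0.37 and −0.66, where 6 of the 11 were called (4 lower and 2 higher, among them Etfdh at 0.49). On vehicle Chdh was lower (−0.27) and Etfdh higher (0.26) in the knockout, the latter not without knockout vehicle replicate 2. The interaction called Sqor (−0.35), Chdh (−0.39) and Prodh (−0.77). Dhodh, the pyrimidine enzyme that also reduces coenzyme Q against ferroptosis, was at 11.6 to 15.4 TPM and was called in no comparison.

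Other genes that share a role with Aifm2 gave a mixed picture. Of 10 quinone or vitamin K reductases and relatives of the AIF family, 1 rose in wild type on GW4064, Vkorc1, a vitamin K epoxide reductase (0.46, adjusted p = 0.0162). It did not pass without vehicle replicate 1 of wild type or without any single wild-type GW4064 library. Under GW4064, 6 of the 10 differed between genotypes, 3 in each direction, with Nqo1, the soluble quinone reductase, higher in the knockout (1.00, adjusted p = 2.68e-04), and Vkorc1 (−0.56) and Aifm1 (−0.22) lower. On vehicle 3 were called, Cryz (0.26) higher and Aifm1 (−0.14) and Aifm3 (−0.36) lower. None of the 10 was called in the interaction. Of the 4 genes of N-myristoylation, the lipid modification that places FSP1 on membranes, 0 were called in any of the 5 comparisons by limma, and Nmt1 lay at 76.5 to 87.6 TPM.

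Of 11 tested genes of other routes that bear on ferroptosis, 2 rose in wild type on GW4064, the glutathione genes Gclm (0.43) and Gsr (0.42). In the knockout Gclm was 262, 278 and 287 TPM on vehicle and 311, 300 and 311 on GW4064. Gsr was 183, 196 and 173 TPM there on vehicle and 242, 207 and 213 on GW4064. Neither pair of knockout groups overlapped, and neither gene was called in the knockout response or in the interaction. The list is not limited to defences, and Dhcr7 is not known as one. Gpx4, the central lipid peroxidase of ferroptosis defence, was at 1190 to 1410 TPM and Gch1, of the tetrahydrobiopterin route, at 1.35 to 1.97 TPM. Both were called in no comparison, and Slc7a11, at 0.065 to 0.338 TPM, was too low to be tested. On vehicle 5 were called in the knockout, Txnrd1 (0.33) higher and Gss (−0.23), Mboat2 (−0.44), Gsr (−0.21) and Dhcr7 (−0.49) lower. Under GW4064 6 were called, led by Txnrd1 (0.71), Dhcr7 (−0.88) and Gss (−0.30). In the interaction the called gene was Txnrd1 (0.38). The knockout response to GW4064 called 0 genes in each of these lists, where 0.0138% of all genes were called. An unadjusted limma p under 0.05 was reached there by 4 of the 11 ferroptosis genes and 3 of the 11 electron entry genes. The same held for 3 of the 10 mevalonate genes and 2 of the 10 reductases and relatives. The share of all genes at such an unadjusted p was not counted, here or for the members. These counts therefore cannot show an excess. A count of 0 called genes also does not show that the listed genes were unchanged in the knockout. Of the genes called on vehicle, Mvk, Mvd, Aifm1, Aifm3, Gss, Gsr, Mboat2 and Dhcr7 each lost the call under median-of-ratios scaling and without wild-type vehicle replicate 1. Of the 26 alternatives, Aifm1 kept it in 7, Gsr in 10, and the rest of these in 13 (Dhcr7) to 23 (Gss).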

How the data were processed

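Total RNA of mouse kidney was sequenced in 12 libraries, 4 groups of 3 taken from the labels, from a stranded total RNA kit per the labels' protocols. The authors deposited 1 gene table per library. The build was mm10 and the tools named were Cufflinks, HISAT2 and StringTie, per the submitters' processing notes. The role and version of each tool, and the gene models, were not given in the sources used here. TPM as deposited sums to 1000000 per library. FPKM as deposited was proportional to TPM within each library. The deposited coverage, a signal of mean reads per base, gave with FPKM the mapped gigabases. Entries of one gene ID in a library were summed, and 24462 of 24532 IDs had a symbol.

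Differences were tested with limma 3.58.1 (R 4.3.3) on log2(TPM + 0.5), for the 14488 genes that reached 1 TPM in 3 or more libraries. All 12 libraries entered 1 fit with a variance trend, and p-values were adjusted by Benjamini-Hochberg within each of 5 comparisons, called under 0.05. The fold changes understate the change of low genes. With 3 libraries against 3, an exact permutation test cannot go below p = 0.1 and was not used. The fit was tested on simulated data.

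The members and lists were chosen with earlier results of these data known. From each list, genes called in a comparison were named (at most 3 per list and comparison, lowest p first), with a few defining genes of each list. Acat2, Mvk, Gsr and Dhcr7 fall outside that rule where a count of 5 or fewer includes them, and were named after their values were seen. A few genes that the rule would name are not reported here. Alternatives covered pseudocounts of 0.1 and 1, filters, scaling, variance settings, a fat marker covariate, a replicate block and leaving out each library. Coverage in place of TPM, and the repeats for listed genes, were added after the data were seen. Tables were built with Python 3.11.15 and pandas 2.3.3.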

Additional observations from a re-analysis of the deposited data

Results flagged for a closer look

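The response to GW4064 differed between genotypes by the interaction test (knockout response minus wild-type response, log2 scale, limma adjusted p under 0.05) for 12 genes among the members, the listed genes, Slc51a and the neighbours of Aifm2. Genes named for their likeness to Aifm2 are not counted, since they were chosen for a pattern over the same libraries. Over all genes tested, 3.19% were called in the interaction. Members and lists were chosen with earlier results of these data known, and Slc51a as an FXR target. The 12 are thus a description, without a test of excess over that share. For Aifm2 the difference was −0.763 (adjusted p = 0.00484), for its neighbour Tysnd1 −1.13, and for the FXR target Slc51a −3.83. Of the electron entry genes, Prodh was at −0.768 (adjusted p = 0.0496), Chdh at −0.390 and Sqor at −0.348. Of the mevalonate genes, Idi1 was at −0.642, Mvd at −0.513, Acat2 at −0.352 and Hmgcs1 at −0.281. Coq10b was at −0.534, and Txnrd1 at 0.380.

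Prodh, Coq10b, Mvd, Acat2, Hmgcs1 and Txnrd1 each lost this call with no variance trend, with the fat marker covariate and without wild-type vehicle replicate 1. Of the 25 alternatives, Prodh kept it in 7, Txnrd1 in 9, Acat2 in 11, Mvd in 14, and Coq10b and Hmgcs1 in 17 each. Aifm2, Tysnd1, Slc51a, Idi1, Sqor and Chdh kept it in all 25 alternatives of the interaction. Of the 9 synthesis members, 0 were called by limma in the interaction, and Coq6 and Pdss2 had an unadjusted p under 0.05.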

How the results depend on the processing

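Over 26 alternatives (25 for the interaction), Aifm2 kept its call and direction in the wild-type response (0.63 to 0.73), under GW4064 between genotypes (−0.74 to −0.64) and in the interaction (−0.82 to −0.68), and Coq6 its call under GW4064. Members called in the wild-type response fell from 2 to 1, with Pdss2 lost, under no variance trend (adjusted p = 0.0507), only the groups compared (0.0720) and the fat marker covariate (0.0862), and to 1 to 2 when 1 library was left out. Under GW4064 between genotypes, Pdss2 was also lost under median-of-ratios scaling (0.0691), quantile scaling (0.0760), only the groups compared (0.0589) and the fat covariate (0.0594), leaving 2 called members, with 2 to 3 without single libraries. Members called on vehicle rose from 0 to 1 (Coq2) under median-of-ratios scaling, and in the interaction from 1 to 2 (Coq6) under median-of-ratios and quantile scaling, with 1 to 2 without single libraries. The vehicle difference of Coq5, −0.07, turned to 0.017 under median-of-ratios scaling and ran from −0.13 to 0.0065 without single libraries. Genes called in the wild-type response numbered 696, against 428 with the fat covariate and 334 to 768 without single libraries. In the knockout response 2 genes were called, 1 with a pseudocount of 0.1, median-of-ratios or quantile scaling, sample weights or coverage, 0 with no variance trend or only the groups compared, and 0 to 51 without single libraries (51 without knockout GW4064 replicate 2, 31 without knockout vehicle replicate 2). Without single libraries the counts ran from 926 to 1903 on vehicle (main 1872), 1726 to 2760 under GW4064 (main 2677) and 216 to 535 for the interaction (main 462; 207 with the fat covariate). The share of higher genes depended on scaling: 360 of 696 in the wild-type response became 458 of 684 by median of ratios, 462 of 1872 on vehicle became 846 of 1379, 1026 of 2677 under GW4064 became 1243 of 2560, and 213 of 462 in the interaction became 138 of 500. Where no cause is given it was not tested.

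The libraries share replicate numbers 1 to 3 in the labels. Over all genes tested, same-numbered libraries of different groups did not deviate together (r −0.0748 to 0.0829), and 3 of 12 libraries correlated best with their own number. This does not speak for single genes such as Coq8a. With the number as a replicate block, 1 member was called in the wild-type response (Pdss2 at adjusted p = 0.0619), 0 genes in the knockout response, and Pdss2 was at 0.0509 under GW4064 between genotypes, while Aifm2 kept its calls.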
